A study of Homo sapiens with 6 samples.

Results

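The genes described here are 40 heat shock chaperones of the cytosol, nucleus and mitochondria with their co-chaperones and heat shock factors, measured in HCT116 cells, which derive from a human colorectal carcinoma. Members were taken by symbol: every probe whose platform annotation names a member was used, which gave 58 probes for 38 of the 40 genes among 47323 probes for 20046 genes on the array. HSF2 and AHSA1 are not listed in the probe annotation used here and have no value. HCT116 cells stably expressed 1 of 3 short hairpin RNAs (shRNAs), with no further treatment given in the labels: a non-silencing control (NS shRNA), PEA15 shRNA 1 or PEA15 shRNA 2, the 2 hairpins aimed at PEA15, which encodes a small protein known to bind ERK kinases through its death effector domain. Each group has 2 Illumina arrays of total RNA, 6 in all. The control carries a hairpin too, so all 3 groups share the selection of a stable shRNA line. The labels do not say whether each line is a clone or a pool, nor whether the 2 replicates came from separate cultures, so the p-values measure the spread between these arrays, which may be technical.

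Chaperones bind unfolded proteins and help them fold. In the HSP70 cycle, J-domain (DNAJ, or HSP40) proteins deliver clients and stimulate the ATPase, while HSP110 proteins and BAG co-chaperones exchange the nucleotide, and clients such as kinases and hormone receptors pass on to HSP90. A subset of these genes is induced when heat shock factor 1 (HSF1) binds heat shock elements, which are alternating GAA and TTC units, while the remaining genes are transcribed in unstressed cells as well. By textbook knowledge 19 members were classed as inducible and 21 as constitutive, with a core of 7 strongly HSF1-dependent inducible genes (HSPA1A, HSPA1B, HSPH1, HSP90AA1, HSPB1, DNAJB1 and BAG3). Many genes induced by heat are also abundant without it, so the classes describe regulation and not level.

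Upstream sequences are shown first for the 4 genes called in a comparison, for HSPA1A as the near copy of HSPA1B, and for HSPA8 as the constitutive HSP70, to show which hold the letters of a heat shock element and which do not. Sequences are the 250 bases before a RefSeq gene start on GRCh38.p14, on the gene's strand from 5′ to 3′, in lower case with the GAA and TTC units of matched elements in capitals. HSPA1B and HSPA1A encode the major stress-inducible HSP70 and lie close together on chromosome 6, HSPA1B at chr6:31827488-31827737 (plus strand) and HSPA1A at chr6:31815293-31815542 (plus strand). DNAJB1, the main inducible J-domain partner of HSP70, is shown at chr19:14518398-14518647 (minus strand), the start with matches among its 3 starts in the table. HSPH1, the stress-inducible HSP110, is shown at chr13:31162389-31162638 (minus strand) and has no capitals because it held no match. HSPA8, the constitutive HSP70, is shown at chr11:123062137-123062386 (minus strand). For HSPA4L, an HSP110 protein, only the matched site is shown, at chr4:127782141-127782170 (plus strand), upstream of 1 of its 3 starts.
HSPA1B: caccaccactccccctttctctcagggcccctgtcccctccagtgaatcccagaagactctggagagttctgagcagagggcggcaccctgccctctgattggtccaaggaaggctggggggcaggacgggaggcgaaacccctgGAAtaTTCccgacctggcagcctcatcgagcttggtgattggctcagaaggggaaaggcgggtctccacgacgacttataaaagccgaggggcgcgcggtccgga
HSPA1A: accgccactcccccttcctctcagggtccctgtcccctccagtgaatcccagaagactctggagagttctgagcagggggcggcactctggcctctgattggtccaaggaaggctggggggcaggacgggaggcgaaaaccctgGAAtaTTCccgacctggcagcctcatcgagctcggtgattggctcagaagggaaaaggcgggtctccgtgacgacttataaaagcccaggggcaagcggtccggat
DNAJB1: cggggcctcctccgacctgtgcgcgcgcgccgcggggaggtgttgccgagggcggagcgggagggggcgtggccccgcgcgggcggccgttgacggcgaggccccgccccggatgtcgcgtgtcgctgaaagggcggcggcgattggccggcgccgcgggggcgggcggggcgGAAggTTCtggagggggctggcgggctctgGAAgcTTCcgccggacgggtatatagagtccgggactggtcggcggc
HSPH1: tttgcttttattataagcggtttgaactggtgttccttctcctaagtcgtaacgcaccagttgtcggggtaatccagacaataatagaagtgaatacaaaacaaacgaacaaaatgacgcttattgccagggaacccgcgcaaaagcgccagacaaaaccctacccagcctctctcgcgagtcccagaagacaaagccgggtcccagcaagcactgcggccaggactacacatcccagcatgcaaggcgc
HSPA8: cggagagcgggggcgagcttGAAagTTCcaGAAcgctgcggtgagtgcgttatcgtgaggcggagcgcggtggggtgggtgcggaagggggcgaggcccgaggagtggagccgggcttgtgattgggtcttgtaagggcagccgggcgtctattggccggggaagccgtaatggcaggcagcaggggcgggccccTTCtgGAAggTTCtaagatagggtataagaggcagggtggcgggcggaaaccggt
HSPA4L: tttccagatctTTCtcGAAcccgcagcttc

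The HSPA1A and HSPA1B windows were identical at 235 of 249 aligned bases (94.4%), with a longest shared run of 49 bases, and each held a single GAANNTTC match, at bases -105 to -98 from the start in HSPA1B and -106 to -99 in HSPA1A. DNAJB1 held a pair of GAANNTTC matches, at -77 to -70 and at -47 to -40. HSPA8 held 3-unit matches at -230 to -218 and at -55 to -43. The HSPA4L match was the opposite pair, TTCNNGAA, at -170 to -163.

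Across the members, 36 of 40 had an entry in the promoter table, with 51 windows. Windows were searched for 2 inverted units (GAANNTTC or TTCNNGAA, each its own reverse complement) and for 3 alternating units (GAANNTTC followed by NNGAA, or TTCNNGAA followed by NNTTC, reverse complements of each other), so both strands were read, and every 3-unit match contains 2-unit matches. The 2-unit letters occurred in 16 member windows (31.4%), against 4067 of all 35116 windows in the table (11.6%). The 3-unit letters occurred in 6 member windows (11.8%), against 155 of all windows (0.441%). Inducible members had the 2-unit letters in 12 of 29 windows (41.4%) and constitutive members in 4 of 22 (18.2%). For the 3-unit letters the counts were 3 of 29 (10.3%) and 3 of 22 (13.6%). The constitutive genes HSPA8, HSP90AB1 and DNAJB6 held 3-unit matches, as did the inducible CHORDC1, HSP90AA1 and HSPD1. These are matches of letters, not measured binding sites, and no test was made between the classes. The 4 genes called in a comparison had 8 windows, of which 3 (37.5%) held the 2-unit letters and 0 the 3-unit letters, and the inducible HSPH1 and BAG3 held neither.

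**Figure D1:**
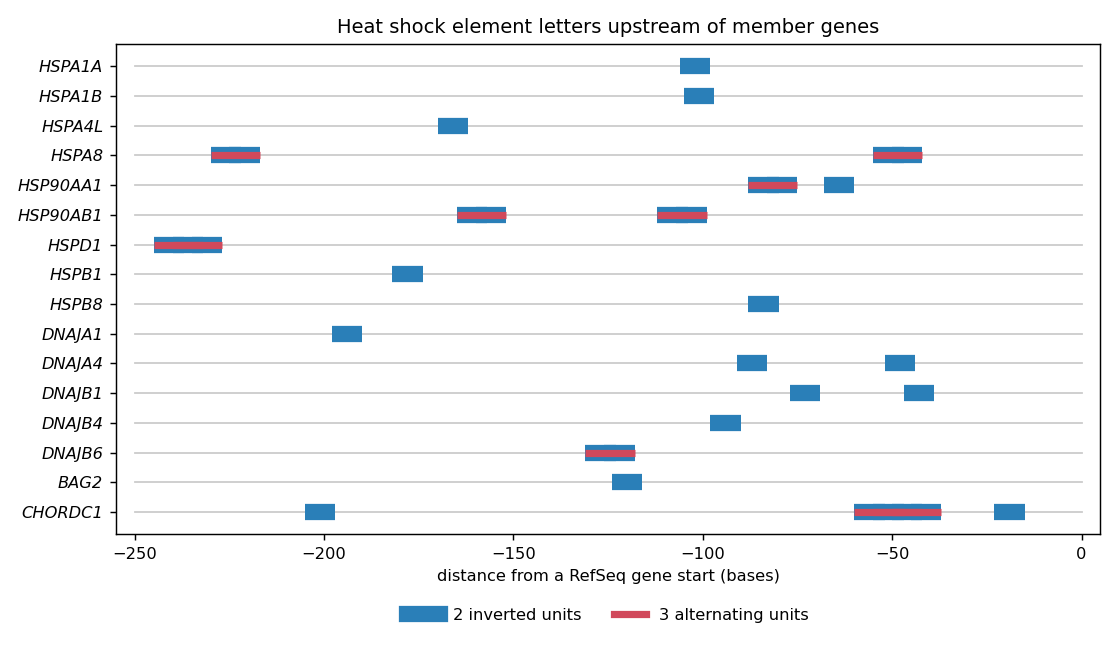
Positions of 2 inverted units (wide bars) and 3 alternating units (narrow bars) upstream of member genes with a match, in bases from a RefSeq gene start. HSPA1B and HSPA1A each have 1 match at nearly the same distance, while CHORDC1, HSP90AB1 and HSPA8 have several that include 3 units.

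Array medians of the deposited signal lay between 102 and 109, and 41.1% to 43% of probes were detected on each array (detection p under 0.05). Arrays of 1 group correlated at 0.9948 to 0.9952 over rows tested and arrays of different groups at 0.9891 to 0.9938. PEA15 itself had log2 levels of 8.97 and 9.15 with NS shRNA, 8.22 and 8.17 with PEA15 shRNA 1, and 7.71 and 7.93 with PEA15 shRNA 2. The change passed the test with PEA15 shRNA 2 (-1.23 ± 0.12 SE, limma adjusted p = 0.00573) and missed it with PEA15 shRNA 1 (-0.86 ± 0.12, adjusted p = 0.122), so members are given for each hairpin apart. Of 8 epithelial markers 7 were detected on all 6 arrays, and VIL1 was not detected. All 5 endothelial markers and the defining leukocyte genes PTPRC, CD3E and CSF1R were undetected, while CD14 and LYZ were detected on all 6 arrays. Of 6 fibroblast markers COL1A1 was detected on all 6 arrays, DCN on some, and COL1A2, COL3A1, LUM and PDGFRB on none.

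A gene was tested if both arrays of any 1 group had a detection p under 0.05, which left 35 member genes: 16 of the 19 inducible and 19 of the 21 constitutive members. Beside HSF2 and AHSA1, the untested members were HSPA1A, detected on 0 of 6 arrays, and HSPB8, a small heat shock protein, and DNAJC2, a ribosome-associated J-domain protein, each detected on 2 of 6. Levels are log2 signals after background correction and quantile normalization, 1 probe a gene, and changes are differences of group means. An offset of 16 was added before the log, so the changes of dim genes are understated. The arrays measure RNA pooled over many cells, so fewer cells with a transcript and less of it per cell cannot be told apart. Replicates of members differed by a median of 0.0921 log2 units, against 0.124 over all 15967 rows tested, and by at most 0.736 (HSPA2 with PEA15 shRNA 1).

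With PEA15 shRNA 2, the inducible HSP70 gene HSPA1B fell to 0.472 of its NS shRNA level (95% interval 0.401 to 0.555) and was the single member to pass the test against NS shRNA. Of the 35 members, 1 was called lower and 0 higher after Benjamini-Hochberg adjustment over all rows tested, where 0.495% of all rows were called lower, 1.2% higher and 1.7% in either direction. At an unadjusted p under 0.05, 11 of 35 members (31.4%) were lower and 0 higher, against 9.07% and 8.87% of all rows. The 11 include HSPA2, which passed the detection filter through NS shRNA alone, the group where it was highest. Both PEA15 shRNA 2 arrays lay below both NS shRNA arrays for 14 members (40%) and above them for 9 (25.7%), against 26.1% and 24% of all rows. With quantile normalization alone, the submitters' values, a larger offset, a trended prior or a stricter detection filter, the count was 7 to 9, all lower, and each time included HSPA1B, HSPA4L, HSPA8, DNAJA1, DNAJA4, DNAJB1 and BAG3. In those settings 20% to 25.7% of members and 4.82% to 6.29% of all rows were called in either direction. Against NS shRNA, PEA15 shRNA 1 gave 0 member calls by limma, where 0.0188% of all rows were called, with 3 members higher (8.57%) and 3 lower (8.57%) at an unadjusted p under 0.05, against 5.84% and 5.89% of all rows. Both hairpins are set against the same NS shRNA arrays, so the 2 comparisons are not independent.

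In the direct comparison of PEA15 shRNA 2 with PEA15 shRNA 1, 4 of 35 members (11.4%) were lower and 0 higher: HSPA1B, HSPA4L, HSPH1 and DNAJB1. Over all rows 1.32% were called lower, 2% higher and 3.32% in either direction. All 4 are inducible, as are 16 of the 35 tested members, and 3 of them belong to the HSP70 and HSP110 families, as do 8 of the 35. That none is constitutive depends on the probe used. A second probe of the constitutive HSPA8 gave -0.62 (limma adjusted p = 0.0275) when every kept probe was a row. At an unadjusted p under 0.05, 8 members (22.9%) were lower and 2 (5.71%) higher, against 10.9% and 11.6% of all rows. The arrays of the 2 hairpins did not overlap, with PEA15 shRNA 2 lower, for 16 members (45.7%, against 27.7% of all rows) and, with it higher, for 4 (11.4%, against 26%).

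**Figure D2:**
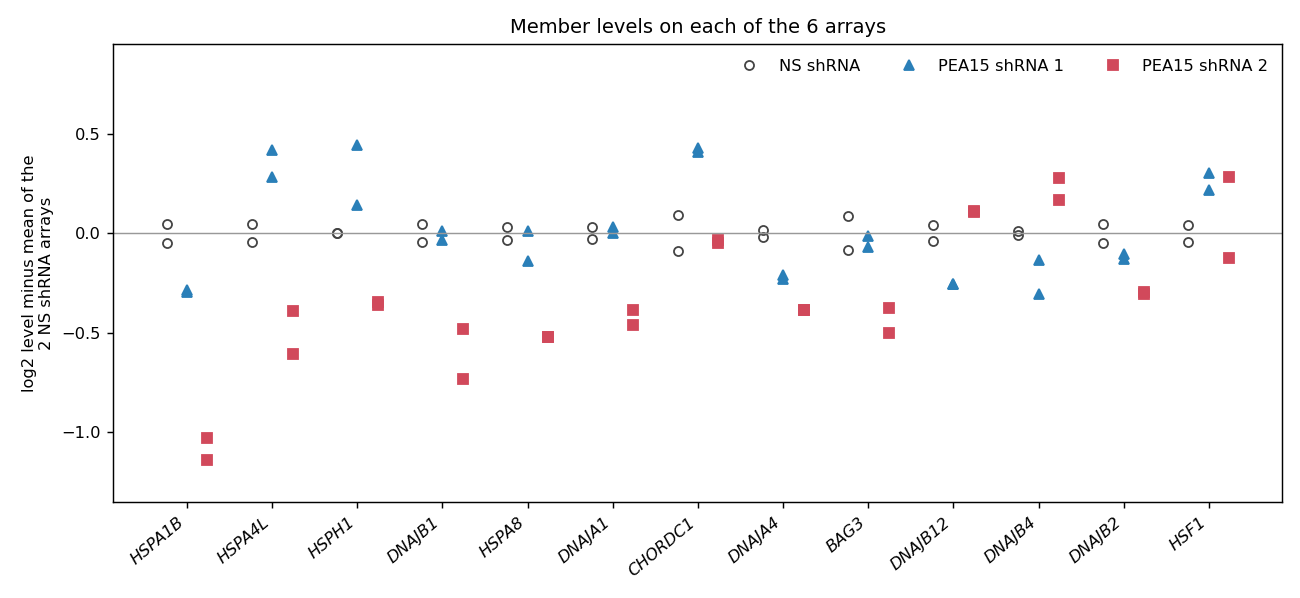
Level of 13 members on each of the 6 arrays, as log2 level minus the mean of the 2 NS shRNA arrays (y axis), with 2 points a group for each gene. HSPA1B is lowest on both PEA15 shRNA 2 arrays, with a mean change of -1.08, and HSPA4L and HSPH1 lie above the NS shRNA mean with PEA15 shRNA 1 and below it with PEA15 shRNA 2.

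Among the HSP70 genes, HSPA1B had log2 levels of 12.21 and 12.11 with NS shRNA, 11.87 and 11.88 with PEA15 shRNA 1, and 11.02 and 11.13 with PEA15 shRNA 2. The 3 groups did not overlap and stood in that order. Its change against NS shRNA was -1.08 ± 0.10 (2.12-fold lower, limma adjusted p = 0.0052) with PEA15 shRNA 2 and -0.29 ± 0.10 (adjusted p = 0.336) with PEA15 shRNA 1, and PEA15 shRNA 2 lay 1.73-fold below PEA15 shRNA 1 (-0.79 ± 0.10, adjusted p = 0.0103). Leaving out any 1 of 3 arrays ended the call against NS shRNA. The change was -1.04 (adjusted p = 0.0689) without replicate 1 of NS shRNA, -1.13 (adjusted p = 0.0632) without replicate 2 of NS shRNA and -1.03 (adjusted p = 0.0592) without replicate 1 of PEA15 shRNA 2, in a range of 2e-08 to 0.0689 over 15 alternatives. The near-identical HSPA1A had a single probe, at log2 levels of 4.27 to 4.54, not detected on any array. Its levels were 4.37 and 4.27 with NS shRNA, 4.27 and 4.54 with PEA15 shRNA 1, and 4.45 and 4.36 with PEA15 shRNA 2. The coding sequences of the pair are known to be almost the same, and whether the HSPA1B probe also bound HSPA1A transcripts was not tested.

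HSPA8, the abundant constitutive HSP70 that serves folding in unstressed cells, had levels of 13.13 and 13.07 with NS shRNA, 12.96 and 13.11 with PEA15 shRNA 1, and 12.58 and 12.58 with PEA15 shRNA 2. Both PEA15 shRNA 2 arrays lay below the other 4. Its change with PEA15 shRNA 2 was -0.52 ± 0.10 and missed the threshold (adjusted p = 0.0539), as did the difference from PEA15 shRNA 1 (-0.46, adjusted p = 0.0583). A second HSPA8 probe, tested with every kept probe as its own row, gave -0.69 ± 0.11 (adjusted p = 0.0287) against NS shRNA and -0.62 (adjusted p = 0.0275) against PEA15 shRNA 1, so the probes fell on different sides of the threshold. With every kept probe as a row, 1.41% of rows were called against NS shRNA, 2.95% between the hairpins and 0.0152% with PEA15 shRNA 1. HSPA2, best known from testis, was dim and detected on 4 of 6 arrays, with -0.65 ± 0.22 (adjusted p = 0.187) under PEA15 shRNA 2. A second kept HSPA2 probe gave 0.24 with PEA15 shRNA 1, where the probe used gave -0.33, and -0.37 with PEA15 shRNA 2. This second probe passed the detection filter through PEA15 shRNA 1 alone, the group where it was highest. The filter therefore favoured a higher value with PEA15 shRNA 1 for that probe. HSPA9, the mitochondrial HSP70, and HSPA14, a ribosome-associated HSP70-like protein, had changes of -0.01 to 0.11 in both comparisons with NS shRNA.

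The HSP110 proteins act as nucleotide exchange factors for HSP70. HSPA4L had levels of 7.45 and 7.54 with NS shRNA, 7.78 and 7.91 with PEA15 shRNA 1, and 6.89 and 7.11 with PEA15 shRNA 2. All 3 groups were separate, with PEA15 shRNA 1 highest. The hairpins differed by -0.85 ± 0.12 (1.80-fold, limma adjusted p = 0.0134), while neither change against NS shRNA passed (0.35, adjusted p = 0.313, and -0.50, adjusted p = 0.0829). HSPH1, the stress-inducible HSP110, had levels of 11.59 and 11.59 with NS shRNA, 11.73 and 12.03 with PEA15 shRNA 1, and 11.24 and 11.23 with PEA15 shRNA 2. It had the same order of groups, and the hairpins differed by -0.65 ± 0.12 (1.57-fold, adjusted p = 0.0369) with changes of 0.29 (adjusted p = 0.408) and -0.35 (adjusted p = 0.189) against NS shRNA. The constitutive HSPA4 had changes of 0.02 and 0.04 against NS shRNA, with a standard error of 0.21. Over the 8 tested HSP70 and HSP110 genes the median change with PEA15 shRNA 2 was -0.43 against NS shRNA and -0.39 against PEA15 shRNA 1, with medians over all rows of -0.0060 and -0.0062. These 8 include HSPA2, which passed the detection filter through NS shRNA alone.

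Of the 12 tested J-domain genes, 7 lay below 0 with PEA15 shRNA 2 and 5 above, with a median of -0.14. DNAJB1 had levels of 10.08 and 9.99 with NS shRNA, 10.00 and 10.05 with PEA15 shRNA 1, and 9.56 and 9.30 with PEA15 shRNA 2. Its PEA15 shRNA 2 arrays lay below the other 4, which overlapped among themselves. PEA15 shRNA 2 was 1.51-fold below PEA15 shRNA 1 (-0.59 ± 0.12, limma adjusted p = 0.0425) and 1.52-fold below NS shRNA (-0.60 ± 0.12, adjusted p = 0.0529), the second of which missed the threshold. DNAJA1, a farnesylated J-domain partner of HSPA8, had levels of 12.29 and 12.35, then 12.35 and 12.32, then 11.86 and 11.93 in the same order of groups. Its PEA15 shRNA 2 arrays were again the lowest pair, with -0.42 (adjusted p = 0.0781) against NS shRNA and -0.44 (adjusted p = 0.0561) against PEA15 shRNA 1.

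DNAJA4, another class A J-domain protein, had levels of 9.82 and 9.85 with NS shRNA, 9.63 and 9.61 with PEA15 shRNA 1, and 9.45 and 9.45 with PEA15 shRNA 2. It stood lower with both hairpins, at -0.22 ± 0.09 (adjusted p = 0.426) and -0.39 ± 0.09 (adjusted p = 0.0928). DNAJB4 stood the other way, with 5.34 and 5.32 for NS shRNA, 5.03 and 5.20 for PEA15 shRNA 1, and 5.50 and 5.61 for PEA15 shRNA 2. The hairpins differed by 0.44 (adjusted p = 0.07), with PEA15 shRNA 2 highest in this inducible but dim gene. DNAJB12 is anchored in the endoplasmic reticulum membrane with its J domain facing the cytosol, and is counted with the cytosolic members for that reason. It had levels of 6.44 and 6.52, then 6.23 and 6.22, then 6.59 and 6.59, a difference of 0.36 between hairpins (adjusted p = 0.0808). Its other 3 kept probes gave 0.09, 0.04 and -0.00090 with PEA15 shRNA 1 and -0.10, -0.18 and -0.03 with PEA15 shRNA 2, so the probes did not share a direction. The constitutive DNAJA2, DNAJB2, DNAJB6, DNAJC7 and DNAJC8 and the inducible DNAJB5 ranged from -0.30 to 0.16 with PEA15 shRNA 2 and 0 of these 6 passed the test. DNAJB2 had levels of 8.67 and 8.77 with NS shRNA, 8.62 and 8.59 with PEA15 shRNA 1, and 8.43 and 8.42 with PEA15 shRNA 2. Its changes against NS shRNA were -0.12 ± 0.10 (limma adjusted p = 0.706) and -0.30 ± 0.10 (adjusted p = 0.169). A second, dimmer DNAJB2 probe gave 0.18 and -0.09.

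**Figure D3:**
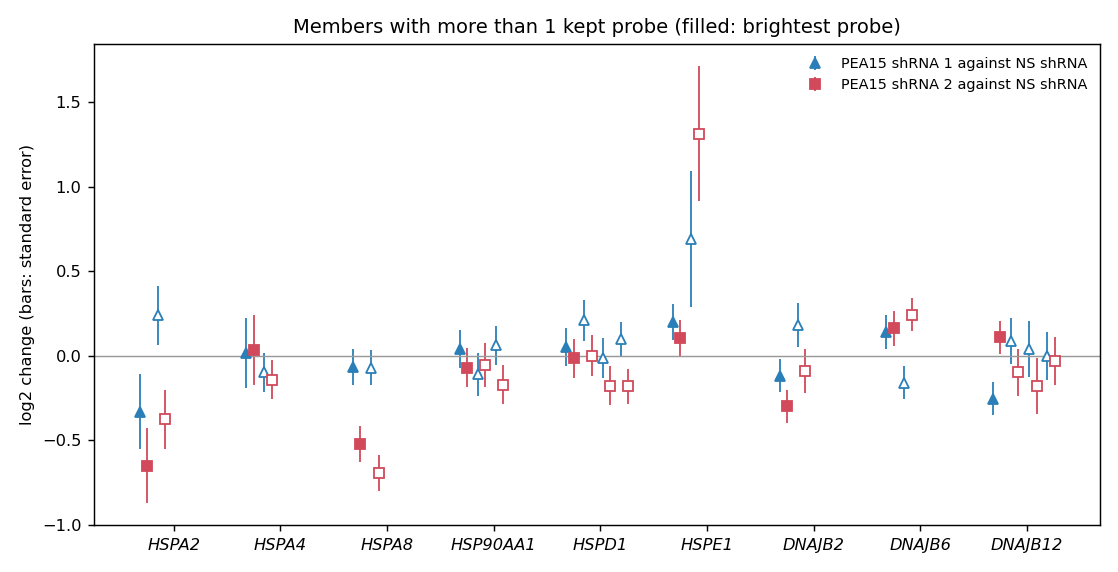
Log2 change against NS shRNA of every kept probe for the members with more than 1 kept probe, with standard errors, filled for the probe used for the gene. Both HSPA8 probes lie below 0 with PEA15 shRNA 2, the 4 DNAJB12 probes lie on both sides of 0, and the dimmer HSPE1 probe has a standard error of 0.40.

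Among the nucleotide exchange factors of the BAG family, BAG3, which links HSP70 to small heat shock proteins and selective autophagy, had levels of 10.32 and 10.49 with NS shRNA, 10.33 and 10.39 with PEA15 shRNA 1, and 9.91 and 10.03 with PEA15 shRNA 2. The PEA15 shRNA 2 arrays lay below the other 4. Its changes of -0.44 (adjusted p = 0.0961) against NS shRNA and -0.40 (adjusted p = 0.0895) against PEA15 shRNA 1 did not pass. BAG1 had -0.31 (adjusted p = 0.18) and BAG2 0.21 (adjusted p = 0.365) with PEA15 shRNA 2.

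None of the 3 tested HSP90 genes passed the test, and their median change with PEA15 shRNA 2 was -0.07. HSP90AA1, the inducible cytosolic HSP90, had changes of 0.04 and -0.07 with PEA15 shRNA 1 and PEA15 shRNA 2, and its constitutive counterpart HSP90AB1 had -0.02 and -0.10. Among HSP90 and HSP70 co-chaperones, CHORDC1, an inducible HSP90-binding protein, had levels of 9.19 and 9.01 with NS shRNA, 9.51 and 9.53 with PEA15 shRNA 1, and 9.06 and 9.05 with PEA15 shRNA 2. It was highest on both PEA15 shRNA 1 arrays, at 0.42 ± 0.10 (1.34-fold, adjusted p = 0.247) against NS shRNA, and PEA15 shRNA 2 differed from PEA15 shRNA 1 by -0.46 (adjusted p = 0.0597). The scaffold STIP1, which joins HSP70 to HSP90, had -0.07 and -0.24, and the immunophilin FKBP4 0.15 and 0.04. ST13, an HSP70 cofactor, had -0.17 and -0.07, and CDC37, which loads kinases onto HSP90, had 0.03 and -0.04.

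By the probe used for each gene, the 5 tested mitochondrial chaperones stood near or above their NS shRNA level with PEA15 shRNA 2. HSPA9 (0.11), DNAJA3 (0.20), a mitochondrial J-domain protein, TRAP1 (0.13), the mitochondrial HSP90, and HSPE1 (0.11), the HSP10 lid of the chaperonin, each had both PEA15 shRNA 2 arrays above both NS shRNA arrays, while HSPD1 (-0.02), the HSP60 ring, overlapped. Arrays lay apart in this direction for 4 of these 5 genes, against 24% of all rows. The standard errors of these changes were 0.10 to 0.13, and HSPE1 stood at 0.20 with PEA15 shRNA 1. Further kept HSPD1 probes, all dimmer than the probe used, gave 0.00030, -0.18 and -0.18 with PEA15 shRNA 2 against NS shRNA. The dimmer HSPE1 probe gave 1.31 ± 0.40. Between the hairpins, 2 of the 5 had arrays apart with PEA15 shRNA 2 higher (40%, against 26% of all rows), and 2 lay below 0. With PEA15 shRNA 2 against NS shRNA the median of the 5 was 0.11, against -0.09 for the 30 cytosolic and nuclear members. Between the hairpins these medians were 0.11 and -0.13. In both comparisons 0 of the 5 passed the test. HSPD1 and HSPE1 are counted as inducible, so the mitochondrial genes cross both classes. The small heat shock protein HSPB1, a core inducible gene, had 0.04 and 0.11 with the 2 hairpins.

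**Figure D4:**
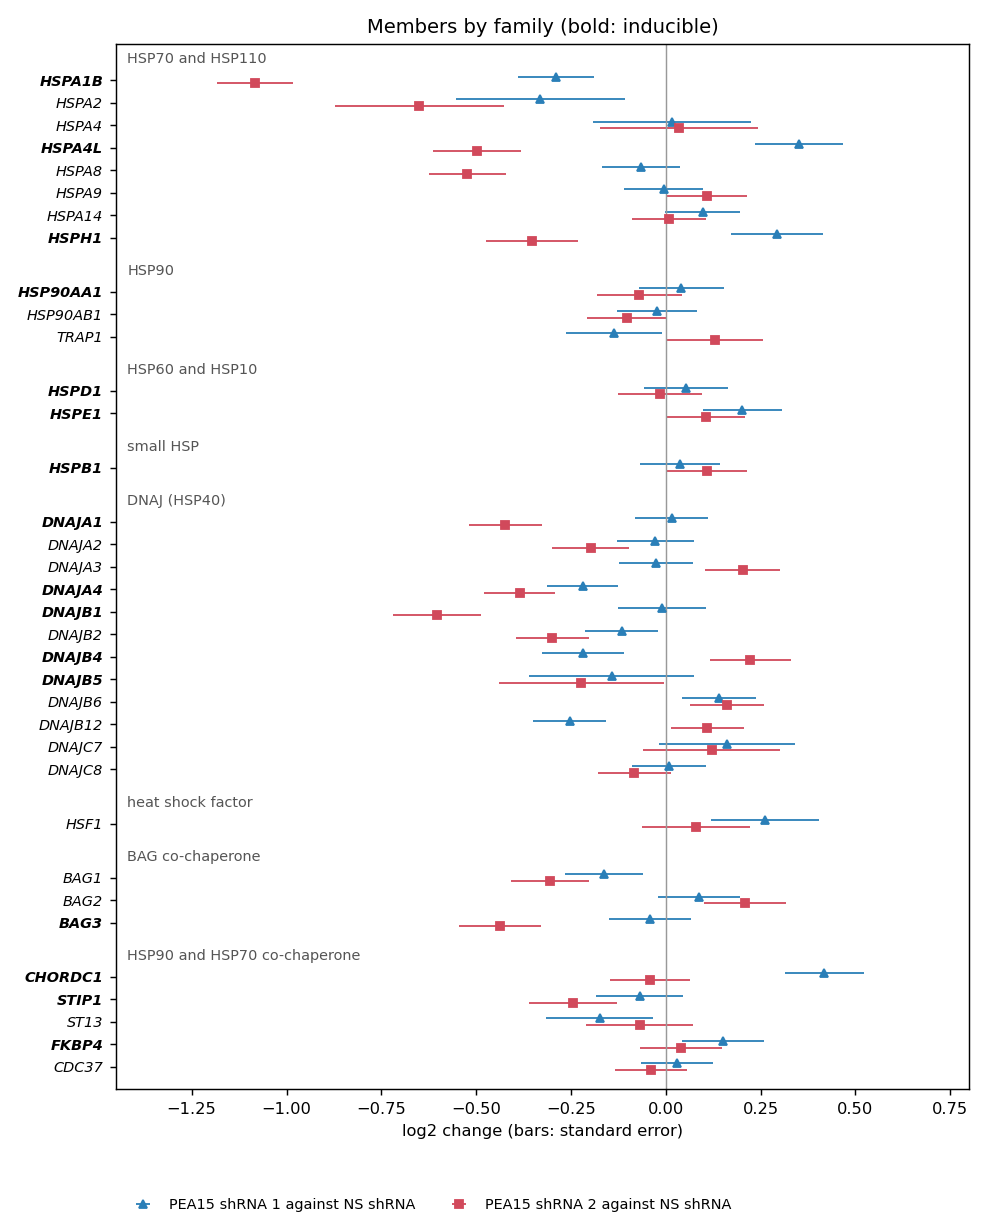
Log2 change against NS shRNA of the 35 tested members with standard errors, by family, with inducible members in bold. With PEA15 shRNA 2, HSPA1B is the farthest below 0 at -1.08, and DNAJB4 the farthest above at 0.22.

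HSF1, the transcription factor that drives the inducible class, had levels of 6.29 and 6.20 with NS shRNA, 6.46 and 6.55 with PEA15 shRNA 1, and 6.52 and 6.12 with PEA15 shRNA 2. Its PEA15 shRNA 2 arrays lay on both sides of the NS shRNA arrays. The changes were 0.26 ± 0.14 (adjusted p = 0.541) and 0.08 ± 0.14 (adjusted p = 0.811). HSF1 is regulated mainly after translation, so its mRNA level does not measure its activity.

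Set side by side with PEA15 shRNA 2 against NS shRNA, 12 of 16 inducible members (75%) lay below 0 with a median of -0.23, and 9 of 19 constitutive members (47.4%) with a median of 0.01, while 51.1% of all rows lay below 0. Without HSPA1B the inducible median was -0.22. The 6 tested core genes had a median of -0.39, with 5 below 0 and HSPB1 above. Against PEA15 shRNA 1, the PEA15 shRNA 2 medians were -0.17 for inducible, -0.49 for core and -0.07 for constitutive members, with 14 of 16, 5 of 6 and 11 of 19 below 0. With PEA15 shRNA 1 against NS shRNA the medians were 0.03 for inducible members (9 above and 7 below 0) and -0.02 for constitutive members (8 above and 11 below). With PEA15 shRNA 2 against NS shRNA, 7 of 16 inducible members (43.8%) and 4 of 19 constitutive members (21.1%) were lower at an unadjusted p under 0.05, against 9.07% of all rows. The 4 constitutive genes were HSPA8, HSPA2, BAG1 and DNAJB2, none of which passed after adjustment. HSPA2 and BAG1 were detected on 1 of the 2 PEA15 shRNA 2 arrays. HSPA2 passed the detection filter through NS shRNA alone, the group where it was highest, so the filter favoured a lower value with PEA15 shRNA 2. The difference between the classes was not tested.

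**Figure D5:**
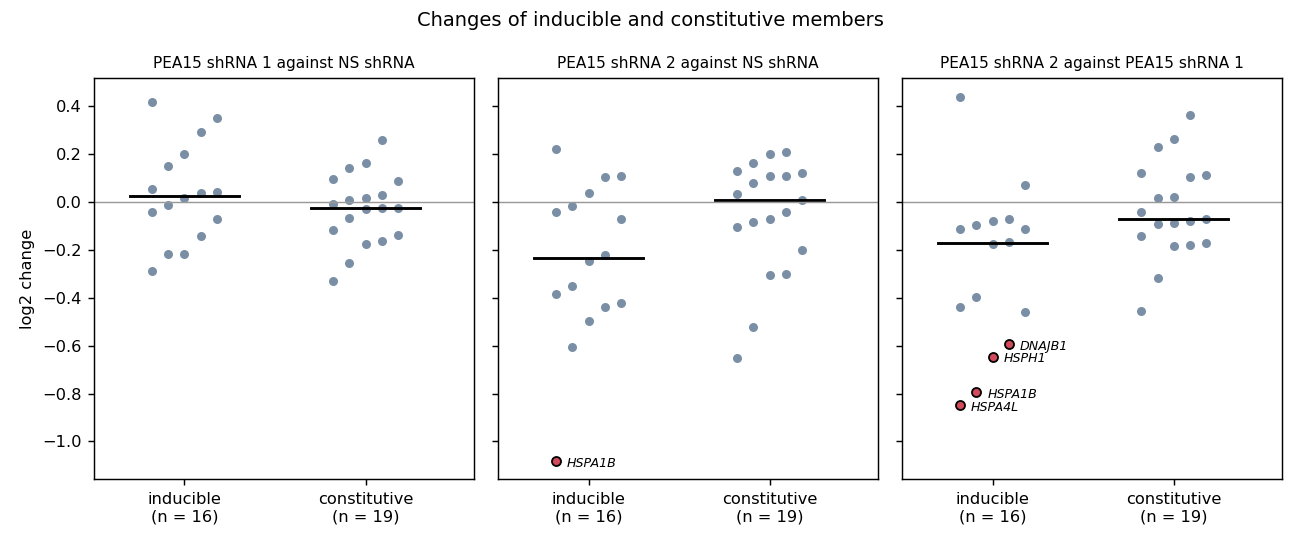
Log2 change of each tested member in the 3 comparisons, inducible (n = 16) and constitutive (n = 19). With PEA15 shRNA 2 against NS shRNA the medians are -0.23 and 0.01. There only HSPA1B (-1.08) lies below the lowest constitutive member, HSPA2 (-0.65). Between the hairpins the lowest values are -0.85 for inducible and -0.46 for constitutive members. The medians with PEA15 shRNA 1 against NS shRNA are 0.03 and -0.02.

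Each of the 4 calls between the hairpins was lost when any 1 of the 4 arrays compared was left out. Without any 1 of PEA15 shRNA 1 replicate 1, PEA15 shRNA 1 replicate 2, PEA15 shRNA 2 replicate 1 or PEA15 shRNA 2 replicate 2, 0 members were called, and the limma adjusted p ran from 0.0657 to 0.0765 for HSPA1B, 0.0612 to 0.0837 for HSPA4L, 0.0608 to 0.166 for HSPH1 and 0.0802 to 0.183 for DNAJB1. Without either NS shRNA replicate, which enters only the estimate of the spread, HSPH1 (adjusted p = 0.0737) and DNAJB1 (adjusted p = 0.076) missed the threshold and HSPA1B and HSPA4L passed it.

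Other genes of the chaperone network were taken from lists of 81 genes, 70 of which were tested. Against NS shRNA 0 of 70 passed with either hairpin, where 0.0188% and 1.7% of all rows were called. At an unadjusted p under 0.05, 4 were higher and 4 lower with PEA15 shRNA 1 (5.71% each, against 5.84% and 5.89% of all rows), and 5 were higher and 6 lower with PEA15 shRNA 2 (7.14% and 8.57%, against 8.87% and 9.07%). Between the hairpins 1 of 70 passed (1.43%, where 2% of all rows were called higher and 3.32% in either direction). TIMM44, which tethers mitochondrial HSP70 to the import channel, had levels of 7.49 and 7.52 with NS shRNA, 7.55 and 7.33 with PEA15 shRNA 1, and 8.14 and 8.06 with PEA15 shRNA 2. It was 1.58-fold higher with PEA15 shRNA 2 than with PEA15 shRNA 1 (0.66 ± 0.11, limma adjusted p = 0.0269) and 0.59 above NS shRNA (adjusted p = 0.0501). The 8 subunits of TRiC, the cytosolic chaperonin that folds actin and tubulin, had a median of 0.09 with PEA15 shRNA 1 (7 above 0) and -0.12 with PEA15 shRNA 2 (1 above 0). Between the hairpins all 8 lay below 0, with a median of -0.28, 6 (75%, against 27.7% of all rows) had arrays that did not overlap and 0 passed the test. CCT5 led the list with 0.42 (adjusted p = 0.252) for PEA15 shRNA 1 against NS shRNA and -0.45 (adjusted p = 0.0714) between hairpins.

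Among the other HSP90 and HSP70 co-chaperones, FKBP5, an HSP90-bound immunophilin, had -0.60 ± 0.12 (adjusted p = 0.213) with PEA15 shRNA 1 and -0.28 (adjusted p = 0.26) with PEA15 shRNA 2. GADD45B, a stress-responsive gene among the other heat-inducible genes, had 0.57 (adjusted p = 0.052) with PEA15 shRNA 2, while 8 of the 10 tested genes of that list lay below 0, with a median of -0.09. Of the 10 tested genes of mitochondrial protein quality control, 7 lay above 0 with PEA15 shRNA 2, with a median of 0.07. The 4 tested heat shock factors and regulators had 2 above and 2 below 0.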

How the data were processed

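Total RNA of 6 HCT116 samples, 2 for each of 3 shRNAs, was hybridised to Illumina expression arrays. The authors deposited a table of probe signal intensity with a detection p-value per probe and array, and processed values on a log2 scale; per the submitters' processing notes lumi was used, and its version and settings are not given in the sources used here. The deposited intensity was corrected and quantile normalized with neqc in limma 3.58.1 (R 4.3.3), with the deposited detection p-values and an offset of 16. Probes were kept if both arrays of any 1 group had a detection p under 0.05, and the brightest such probe stood for a gene. Genes came from the platform annotation: 30113 probes have 1 symbol, 8 have several and 17202 are not listed. This left 15967 rows, 11498 of them named genes and 4469 unnamed. A mean per group was fitted on all 6 arrays (3 residual degrees of freedom) with moderated variances, and p-values were two-sided and adjusted by Benjamini-Hochberg over all rows, with a threshold of 0.05. The model fit was tested on simulated data, while the normalization, the detection filter and the choice of probe were not. Precision is limited by the number of arrays.

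All 40 members are accounted for. Values on every array are given for members past the threshold, for HSPA1A and HSPA1B, for HSF1 and for 8 further members with an unadjusted p under 0.05 in the largest number of comparisons, ties going to the smallest p. Other pathway genes were named if past the threshold. Of the genes that led their list in a comparison, only some were named. The lists of prefoldin subunits and of other DNAJ genes entered only the counts over all 70 genes. The members and lists were chosen with earlier results of these data known. Single names outside this rule were chosen after their values were seen. Alternatives were quantile normalization with no background correction, the deposited log2 values, a larger offset (50), a trended prior and other detection filters. Further ones were every probe, 2 groups at a time, a replicate block and each array left out.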

Additional observations from a re-analysis of the deposited data

Results flagged for a closer look

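The difference between the 2 hairpins, tested directly as PEA15 shRNA 2 against PEA15 shRNA 1 with limma, drew attention to 4 members whose change from NS shRNA was not the same with both hairpins. For HSPA1B the log2 change with PEA15 shRNA 2 minus that with PEA15 shRNA 1 was -0.79 (adjusted p = 0.0103). For HSPA4L the difference was -0.85 (adjusted p = 0.0134), for HSPH1 -0.65 (adjusted p = 0.0369) and for DNAJB1 -0.59 (adjusted p = 0.0425). In each of the 4, both PEA15 shRNA 2 arrays lay below both PEA15 shRNA 1 arrays, as in 27.7% of all rows. The 4 were chosen by the test of this same comparison, so the order of their arrays adds no support. PEA15 itself differed between the hairpins by -0.38 (adjusted p = 0.122), and its part in these differences was not tested. Groups of 2 arrays are too small to look for a single array that stands apart.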

How the results depend on the processing

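Each count of members called was recomputed under 15 alternatives. With PEA15 shRNA 1 it was 0, or 1 (CHORDC1, higher) with quantile normalization alone, the submitters' values or a trended prior. With PEA15 shRNA 2 against NS shRNA it was 1, and rose to 9 with quantile normalization alone, 8 with the submitters' values, 7 with an offset of 50, 8 with a trended prior and 7 with a stricter detection filter. Between the hairpins 4 became 8 under the first 4 of these and 9 under the stricter filter (22.9% to 28.1% of members, where 9.28% to 11.2% of all rows were called), and 2 with no filter, with only the 2 groups compared or with a replicate block. Leaving out 1 array at a time gave 0 to 1 against NS shRNA with PEA15 shRNA 2 and 0 to 2 between the hairpins. Over the whole table the rows called ran from 0 to 162 with PEA15 shRNA 1 (3 as reported), 17 to 1004 with PEA15 shRNA 2 (271 as reported) and 35 to 1785 between the hairpins (530 as reported).

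The replicate block kept HSPA1B as the 1 call against NS shRNA, and HSPA1B and HSPA4L as the 2 calls between hairpins. Deviations of the first replicates correlated at -0.0173 to 0.0779 across groups, so no effect shared by replicates of 1 number was visible. These values cannot show whether the replicates were prepared in matched sets, which the labels do not say.

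Changes near 0 took the other sign when 1 array was left out. With PEA15 shRNA 1 against NS shRNA the values over arrays left out ran from -0.056 to 0.036 for DNAJB1, which was also at 0.014, from -0.015 to 0.046 for DNAJA1, which was also at -0.00059, from -0.13 to 0.044 for BAG3 and from -0.14 to 0.0091 for HSPA8. With PEA15 shRNA 2 they ran from -0.13 to 0.048 for CHORDC1 and from -0.12 to 0.28 for HSF1, which ran from -0.38 to 0.021 between the hairpins. The inducible median with PEA15 shRNA 2 against NS shRNA was -0.16 with quantile normalization alone and -0.32 without PEA15 shRNA 2 replicate 1. The cause of these shifts was not tested. Dim members such as DNAJB4 and HSPA2 are limited by signal close to background.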

Other observations

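The dimmer of the HSPE1 probes had log2 levels of 9.41 and 8.03 with NS shRNA, 9.57 and 9.26 with PEA15 shRNA 1, and 10.32 and 9.75 with PEA15 shRNA 2. Its NS shRNA arrays were 1.38 apart, and its changes of 0.69 ± 0.40 and 1.31 ± 0.40 (adjusted p = 0.155 with every kept probe tested in limma) were larger than the 0.20 and 0.11 of the brighter probe. The second DNAJB6 probe gave -0.16 and 0.24 where the brighter probe gave 0.14 and 0.16.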
